A study of Homo sapiens with 4 samples.

Results

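Amino acid transporters are membrane proteins that carry amino acids, and some related small molecules, across the plasma membrane or the membranes of lysosomes and vesicles. The genes described here are those of 6 solute carrier families, SLC1, SLC6, SLC7 (without SLC7A11, the cystine carrier), SLC36, SLC38 and SLC43. They were taken by gene symbol, with earlier results of these data known, from probe sets that the platform annotation gives to 1 gene. The brightest probe set by measured level stood for a gene. This gave 56 genes of 18417 in all. All but SLC7A6OS encode carriers or carrier-like proteins; SLC7A6OS, the neighbour of SLC7A6, matches the symbols by name only and was kept in the count.

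The cells were H1299, an established p53-null line from a human non-small cell lung carcinoma, stably carrying mouse p53 (called wild type in the labels) under tet-on control. Uninduced cells were compared with cells given 0.5 µg/mL doxycycline for 24 hours to switch the construct on. Both groups carried the construct and grew in the same medium with 10% serum free of tetracycline. Each group had 2 whole-transcript arrays, which the labels call technical replicates, so the p-values measure only the spread between these arrays and their number limits the precision. No array was of doxycycline-treated cells without the construct, so effects of the drug and of p53 cannot be told apart. The labels do not say whether the line is 1 clone.

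Growing cells depend on these carriers because most amino acids enter only through them. Sodium-coupled carriers such as those of SLC1 and SLC38 concentrate glutamine and small neutral amino acids inside the cell, and exchangers such as SLC7A5 trade that glutamine for leucine and other large neutral amino acids. Lysosomal carriers of SLC36 and SLC38 move amino acids between the lysosome and the cytosol and act with mTORC1, the growth-promoting kinase complex that assembles there. Many SLC6 carriers instead take up neurotransmitters, glycine, taurine or creatine, and several are used mainly in brain, kidney or gut.

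The induction was visible in known p53 targets. MDM2 went from 9.84 and 9.85 log2 units on the uninduced arrays to 12.70 and 12.76 on the induced ones, and CDKN1A from 9.16 and 9.11 to 12.63 and 12.50. Across all genes the arrays correlated at 0.997 and 0.995 within the groups and at 0.917 to 0.921 between them (genes are not independent replicates). The carcinoma markers KRT8, KRT18 and VIM had group means between 9.485 and 12.72; KRT8 rose 2.21-fold and VIM changed by -0.40 on the log2 scale, both called, though the VIM call ended without either uninduced array. Of 25 markers of blood, fibroblast, endothelial and differentiated lung cells, 5 were higher after induction and 0 lower. Of all genes, 20.6% were higher and 24.6% lower. The marker rises were led by SCGB1A1 (log2 fold change 2.03) and ITGAM (1.34). The calls of CD3E, SFTPC and TEK ended whichever array was left out. The part of the 25 markers in the results below was not tested. Uninduced, these markers had a median of 6.50 and an upper quartile of 7.0 log2 units, with CD68 alone far above at 11.74. Probe sets under that quartile are called dim below, because a dim signal can be mostly array background. RNA from many cells cannot tell fewer expressing cells from less RNA per cell.

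Amino acid transporter genes fell more often than they rose, but so did all genes, and the share of falls was near that of all genes. Of the 56, 14 were lower and 7 higher after induction at a Benjamini-Hochberg adjusted p under 0.05 in limma's moderated test across all genes, and 35 did not pass. The changed share of 37.5% compares with 45.1% of all 18417 genes. The lower share was 25.0% against 24.6% of all genes and the higher share 12.5% against 20.6%. At least 2-fold falls were called for 4 transporter genes, SLC1A5, SLC6A15, SLC38A1 and SLC38A6, and 2-fold rises for 2, SLC36A2 and SLC36A1, where 6.77% and 6.48% of all genes passed. The median log2 fold change of the 56 was 0.02 against 0.00 for all genes. Without either uninduced array the number of rises dropped to 4, as the calls of SLC1A3, SLC36A4 and SLC6A19 ended. The falls numbered 13 to 15 whichever array was left out. After centring the arrays on their medians the rises numbered 10 and the falls 14.

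**Figure D1:**
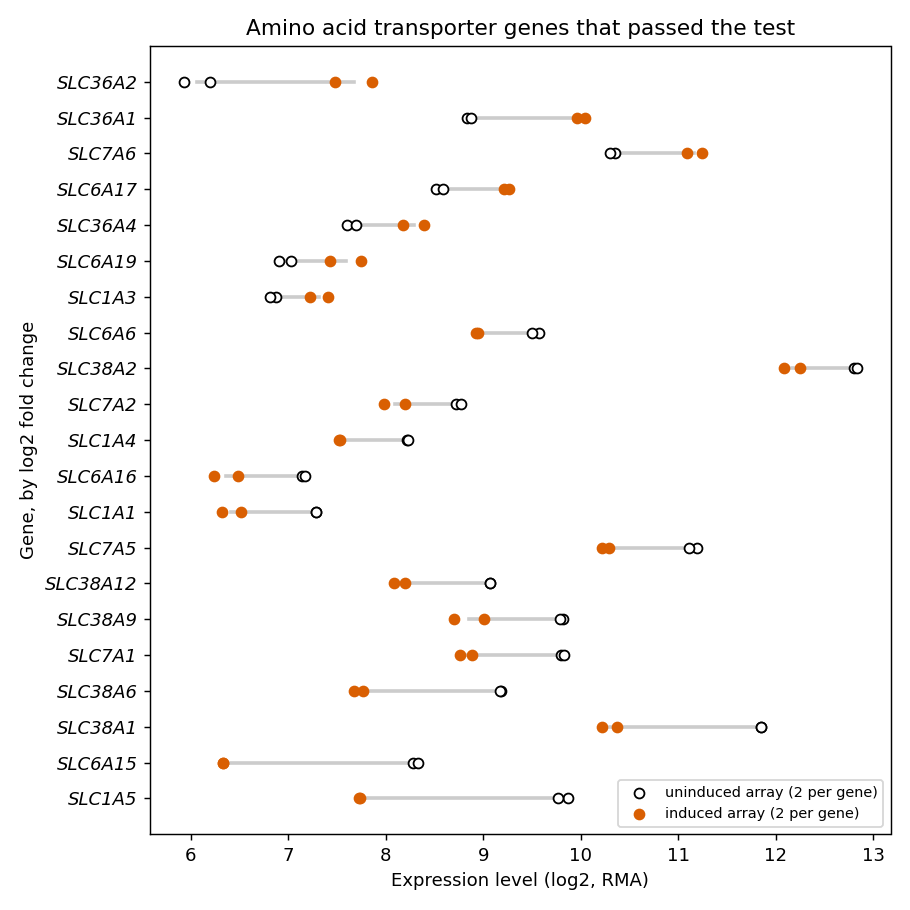
Expression level (x axis, log2 units) on each of the 4 arrays for the 21 amino acid transporter genes that passed the test, ordered by log2 fold change; open circles are uninduced and filled circles induced arrays, and the grey bar joins the group means. Of the 21 genes, 14 lie lower and 7 higher on the induced arrays. In all 21 the uninduced and the induced arrays do not overlap. The test that picked these genes used the same arrays, so this adds no support. Over all genes, 66.8% did not overlap.

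The share of transporter genes that passed differed between dim and brighter probe sets. Of 28 genes with a mean level under the marker quartile, 3 passed the test (10.7%, against 16.9% of all dim genes). Of the other 28, 18 passed (64.3%, against 60.3% of all genes at such levels). These were 12 falls and 6 rises, or 42.9% and 21.4% of the 28, against 33.4% and 26.9% of all genes at such levels. The mean covers both groups, so a change can itself move a gene across the line: SLC6A15, SLC6A19 and SLC1A3 were above it in 1 group only, as were the 3 called dim genes SLC1A1, SLC36A2 and SLC6A16. The split is therefore a description only. The groups of arrays did not overlap in 34 of the 56 genes, which is no more than the 66.8% of all genes for which that held. Among the 21 called genes the log2 fold changes ranged from -2.10 to -0.61 for falls and from 0.48 to 1.61 for rises. Those of the 35 others lay between -0.25 and 0.32, and 1 of these, SLC38A5, had an unadjusted p under 0.05.

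**Figure D2:**
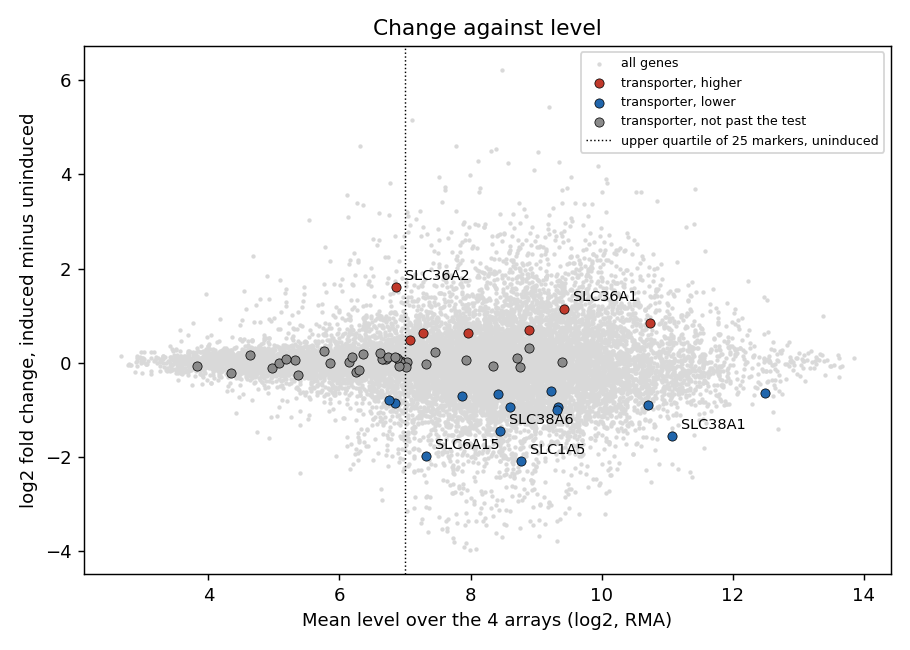
log2 fold change (y axis) against the mean level over the 4 arrays (x axis, log2 units) for all 18417 genes (grey dots) and the 56 amino acid transporter genes (coloured circles); the dotted line is the upper quartile of the 25 markers at 7.0. Left of that line 3 of 28 transporter genes passed the test, right of it 18 of 28. Of all genes, 16.9% passed left of the line and 60.3% right of it.

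Carriers of glutamine and other neutral amino acids held the largest falls. SLC1A5, or ASCT2, exchanges glutamine and small neutral amino acids and is a main glutamine entry route in many tumour lines. Its brightest probe set (8037835) read 9.87 and 9.77 log2 units uninduced and 7.73 and 7.72 induced. Both induced arrays lay more than 2 log2 units under both uninduced ones, a log2 fold change of -2.10 (SE 0.085), or 4.27-fold lower, with an adjusted p of 1.9e-06 in limma's test. The dimmer second probe set of SLC1A5 went from 7.66 and 7.65 to 7.41 and 7.07, a difference of -0.42 that did not pass in a fit of all rows (limma adjusted p = 0.0742). The probe sets of SLC1A5 thus disagree in size though not in direction, and their average changed by -1.26. SLC1A4, or ASCT1, a carrier of serine, alanine and cysteine, went from 8.22 and 8.23 to 7.53 and 7.52, a log2 change of -0.70 (SE 0.081, limma adjusted p = 0.00025).

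SLC38A1 and SLC38A2 encode SNAT1 and SNAT2, sodium-coupled importers of glutamine, alanine and serine. They lie next to each other on chromosome 12 with no other protein-coding gene between them, and SLC38A4, or SNAT4, follows. SLC38A1 read 11.85 on both uninduced arrays and 10.22 and 10.37 on the induced ones, a log2 change of -1.56 (SE 0.090), or 2.94-fold lower. SLC38A2 went from 12.80 and 12.83 to 12.08 and 12.25, a log2 change of -0.65 (SE 0.093), or 1.57-fold lower. SLC38A4, a dim probe set, read 4.95 and 5.21 uninduced and 5.17 and 4.99 induced, with overlapping groups and a log2 fold change of 0.00. Of the system N glutamine carriers, SLC38A3 had a log2 fold change of 0.02 and SLC38A5 one of -0.20 (limma adjusted p = 0.0872), both dim.

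SLC6A15, or B0AT2, a sodium-coupled carrier of branched-chain amino acids and proline known mostly from brain, read 8.28 and 8.33 uninduced and 6.33 on both induced arrays. That was a log2 change of -1.98 (SE 0.082), or 3.93-fold lower, and the level ended under the marker median of 6.50, so the fold depends on the background of the array. SLC6A19, or B0AT1, the neutral amino acid carrier of kidney and gut, moved the other way, from 7.03 and 6.90 to 7.75 and 7.43 (log2 fold change 0.63, SE 0.12). The call of SLC6A19 ended without uninduced array 1, uninduced array 2 or induced array 1, with limma adjusted p-values of 0.087, 0.131 and 0.0522. SLC6A14, a broad carrier of neutral and cationic amino acids, and SLC6A20, a proline carrier, were dim and had log2 fold changes of -0.23 and 0.09. Of the 12 neutral amino acid and glutamine carriers, 5 fell, 1 rose and 6 did not pass, a changed share near the 45.1% of all genes.

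Promoter windows are shown for 4 of the 6 genes with 2-fold changes, so that the stretches beside large falls and rises can be read. Of the others, SLC6A15 had no window to search, and the window of SLC38A6 held 0 matches to the motifs searched. The windows shown are therefore those with a match. The RefSeq promoter table (GRCh38.p14) held 65 windows for 45 of the 56 genes, several genes having more than 1 start. The 250 bases before each start were searched on both strands for 5 motifs: the E-box CACGTG of MYC and related factors, the C/EBP-ATF element TGATGNAA through which ATF4 acts, the cell cycle homology region TTTGAA, the CCAAT box of NF-Y and the half-site of p53. Matches may overlap and are printed in capitals. Each sequence runs 5′ to 3′ on the strand of its gene and ends 1 base before the start of transcription that lies farthest upstream in the table. SLC1A5 is at chr19:46788595-46788844 (minus strand), SLC38A1 at chr12:46267988-46268237 (minus), SLC36A1 at chr5:151436796-151437045 (plus) and SLC36A2 at chr5:151347560-151347809 (minus).
SLC1A5: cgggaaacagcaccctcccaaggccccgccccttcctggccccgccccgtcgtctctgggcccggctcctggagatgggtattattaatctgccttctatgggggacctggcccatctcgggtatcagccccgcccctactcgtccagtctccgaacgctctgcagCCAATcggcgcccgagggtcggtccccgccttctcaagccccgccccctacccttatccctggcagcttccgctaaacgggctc
SLC38A1: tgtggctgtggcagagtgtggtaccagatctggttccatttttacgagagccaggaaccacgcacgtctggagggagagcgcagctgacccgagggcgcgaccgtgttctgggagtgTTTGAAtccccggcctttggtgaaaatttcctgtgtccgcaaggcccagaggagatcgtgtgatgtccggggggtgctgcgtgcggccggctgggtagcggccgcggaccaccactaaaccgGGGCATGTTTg
SLC36A1: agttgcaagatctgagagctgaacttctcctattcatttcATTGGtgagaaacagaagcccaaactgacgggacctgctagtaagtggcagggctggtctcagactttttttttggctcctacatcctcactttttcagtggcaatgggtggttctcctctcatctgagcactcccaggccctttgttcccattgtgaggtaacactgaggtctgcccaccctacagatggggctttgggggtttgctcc
SLC36A2: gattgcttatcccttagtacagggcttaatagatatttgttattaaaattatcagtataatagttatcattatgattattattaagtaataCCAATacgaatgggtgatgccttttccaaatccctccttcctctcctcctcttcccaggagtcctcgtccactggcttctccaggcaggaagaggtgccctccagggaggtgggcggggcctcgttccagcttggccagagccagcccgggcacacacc

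The windows differ in what they hold. SLC1A5, SLC36A1 and SLC36A2 each have 1 CCAAT box, and SLC38A1 has 1 cell cycle homology match and 1 p53 half-site. In the SLC36A1 window the box lies on the minus strand, so the printed letters read ATTGG. The windows of other starts of SLC1A5 and SLC36A1 also hold matches, of which 1 is shown as a 30-base stretch, the C/EBP-ATF element of SLC1A5 at chr19:46784893-46784922 (minus); the others are not shown.
SLC1A5 C/EBP-ATF element: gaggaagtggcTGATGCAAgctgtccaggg
Over all 65 windows of transporter genes, an E-box was found in 13.8% against 6.34% of the 35116 windows in the table, the C/EBP-ATF element in 3.08% against 3.14%, the cell cycle homology region in 10.8% against 13.3%, the CCAAT box in 26.2% against 32.0% and the p53 half-site in 4.62% against 5.57%. A match describes letters in the window and was not measured as a binding site here.

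Among large neutral amino acid carriers the main exchanger and its partner fell together. SLC7A5, or LAT1, imports leucine, other branched-chain and aromatic amino acids as a dimer with SLC3A2, the CD98 heavy chain. SLC7A5 read 11.19 and 11.11 uninduced and 10.22 and 10.29 induced, a log2 change of -0.90 (SE 0.085, limma adjusted p = 9.4e-05); near-identical pseudogene copies of SLC7A5 could share its probes, so the size is uncertain. SLC3A2, which is not one of the 56, read 11.16 and 11.09 uninduced and 10.14 and 10.12 induced, so its log2 level changed by -0.995 (SE 0.083). In both genes every induced array lay under every uninduced one.

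SLC7A6, or y+LAT2, another light chain of SLC3A2, which exchanges arginine for glutamine and sodium, rose. It read 10.35 and 10.30 uninduced and 11.09 and 11.24 induced, 1.79-fold higher (log2 fold change 0.84, SE 0.091, limma adjusted p = 0.00018). SLC7A6OS next to it read 8.80 and 8.81 uninduced and 8.76 and 8.68 induced, a difference of -0.09 (limma adjusted p = 0.48). The other SLC7 light chains among the 56 did not pass the test. SLC7A8, or LAT2, read 6.33 and 6.21 uninduced and 6.62 and 6.29 induced, with overlapping groups. SLC7A7 (y+LAT1), SLC7A9 (the cystine and arginine carrier of kidney), SLC7A10 (Asc-1) and SLC7A13 had log2 fold changes of -0.25, 0.12, 0.06 and -0.06. SLC43A1 and SLC43A2, the LAT3 and LAT4 carriers that need no partner chain, had log2 fold changes of 0.01 and 0.11. SLC43A2 was at 8.72 and 8.60 uninduced and 8.79 and 8.75 induced.

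Of 5 genes of the cationic amino acid carriers, SLC7A1 and SLC7A2 fell and the others did not pass. Of all genes 45.1% changed and 24.6% fell, and 5 genes are too few to set against those shares. SLC7A1, or CAT1, the widely used arginine and lysine importer, read 9.80 and 9.83 uninduced and 8.76 and 8.88 induced. The change was -0.995 on the log2 scale (SE 0.087, limma adjusted p = 6.1e-05), just short of 2-fold. SLC7A2, or CAT2, went from 8.72 and 8.77 to 7.98 and 8.20, a log2 change of -0.66 (SE 0.10), and its call ended without uninduced array 1 or uninduced array 2 (limma adjusted p = 0.0553 and 0.0654). SLC7A3, or CAT3, a cationic carrier of restricted expression, stayed dim, at 5.20 and 5.10 uninduced and 5.24 and 5.22 induced, a difference of 0.08 (limma adjusted p = 0.517). SLC7A4 and SLC7A14 had log2 fold changes of 0.12 and 0.26, neither past the test.

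Glutamate and aspartate carriers moved in both directions. SLC1A1, or EAAT3, read 7.28 on both uninduced arrays and 6.51 and 6.32 on the induced ones, a log2 change of -0.87 (SE 0.095) to a level under the marker median. SLC1A3, or EAAT1, also known as GLAST and best known from astrocytes, read 6.87 and 6.81 uninduced and 7.22 and 7.41 induced, 1.39-fold higher (log2 fold change 0.48, SE 0.096, limma adjusted p = 0.00475). All values of SLC1A3 were near the marker quartile, and its call ended without uninduced array 1, without uninduced array 2 and when a fold of 1.2 was tested (limma adjusted p = 0.0848, 0.109 and 0.097). SLC1A2, SLC1A6 and SLC1A7, the other glutamate carriers, were dim and had log2 fold changes of 0.06, 0.07 and 0.09.

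The proton-coupled SLC36 family held both 2-fold rises. SLC36A1, or PAT1, which exports small neutral amino acids from lysosomes and also works at the plasma membrane, read 8.83 and 8.87 uninduced and 9.96 and 10.04 induced. Both induced arrays lay above both uninduced ones, 2.22-fold higher (log2 fold change 1.15, SE 0.084, limma adjusted p = 2.5e-05). SLC36A2, or PAT2, a glycine and proline carrier of kidney and muscle, read 6.20 and 5.93 uninduced and 7.48 and 7.86 induced, a log2 fold change of 1.61 (SE 0.15, limma adjusted p = 7.7e-05). Its uninduced level was under the marker median, so its fold depends on the background of the array. SLC36A4, or PAT4, went from 7.60 and 7.69 to 8.18 and 8.39 (log2 fold change 0.64, SE 0.10), and its call ended without uninduced array 1 or uninduced array 2 (limma adjusted p = 0.0683 and 0.0528). SLC36A3 stayed dim, with a difference of -0.12. SLC36A1, SLC36A2 and SLC36A3 are neighbours on chromosome 5 with no other protein-coding gene between them, and SLC36A1 is read from the opposite strand to the others.

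Of the lysosomal members of SLC38, SLC38A9 fell and SLC38A7 did not pass the test. SLC38A9, a lysosomal carrier that reports arginine to mTORC1, read 9.82 and 9.79 uninduced and 8.70 and 9.01 induced, a log2 change of -0.95 (SE 0.12, limma adjusted p = 0.00033). SLC38A7, which exports glutamine and asparagine from lysosomes, read 8.44 and 8.32 uninduced and 8.30 and 8.31 induced, with a log2 fold change of -0.08. Less studied SLC38 genes fell too: SLC38A6 read 9.18 and 9.17 uninduced and 7.67 and 7.77 induced, a log2 change of -1.455 (SE 0.085), or 2.74-fold lower. SLC38A12 read 9.07 on both uninduced arrays and 8.08 and 8.20 induced, a log2 change of -0.93 (SE 0.087). SLC38A8, SLC38A10 and SLC38A11 had log2 fold changes of 0.04, 0.02 and 0.16. In all, 5 of 12 SLC38 genes fell and 0 rose (unadjusted, 6 had a p under 0.05 in limma's test), while 3 of 4 SLC36 genes rose and 0 fell. The changed share of SLC38 was 41.7%, near the 45.1% of all genes, of which 24.6% fell and 20.6% rose, and 4 SLC36 genes are too few to set against those shares. These counts by family stood after the arrays were quantile-normalised again or centred on their medians.

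Most SLC6 carriers of neurotransmitters and small solutes did not pass the test. SLC6A6, the taurine transporter, fell, from 9.57 and 9.50 to 8.92 and 8.94 (log2 fold change -0.61, SE 0.083, limma adjusted p = 0.00063). SLC6A17, which loads neutral amino acids into synaptic vesicles, rose from 8.51 and 8.59 to 9.26 and 9.21, 1.61-fold higher (SE 0.084 on the log2 scale). SLC6A16, an orphan member, went from 7.14 and 7.17 to 6.24 and 6.48, a log2 change of -0.80 (SE 0.10) to a level under the marker median. SLC6A8, the creatine transporter, read 8.87 and 8.61 uninduced and 9.23 and 8.88 induced, with nearly touching groups, and had a log2 fold change of 0.32 (SE 0.14, limma adjusted p = 0.114). Near-identical copies of SLC6A8 exist, so its value is uncertain. The transporters of noradrenaline (SLC6A2), dopamine (SLC6A3) and serotonin (SLC6A4) had log2 fold changes of -0.07, 0.22 and 0.22. The glycine carriers SLC6A5 and SLC6A9 were at -0.01 and -0.02, the proline carrier SLC6A7 at 0.13, the GABA and betaine carriers SLC6A11, SLC6A12 and SLC6A13 at 0.03, 0.07 and -0.15, and SLC6A18 at -0.10. Of 18 SLC6 genes, 2 rose and 3 fell, so 27.8% changed against 45.1% of all genes. After centring on array medians the rises were 5, with SLC6A3, SLC6A4 and SLC6A8 added, and after quantile normalization again 3, with SLC6A3 added.

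**Figure D3:**
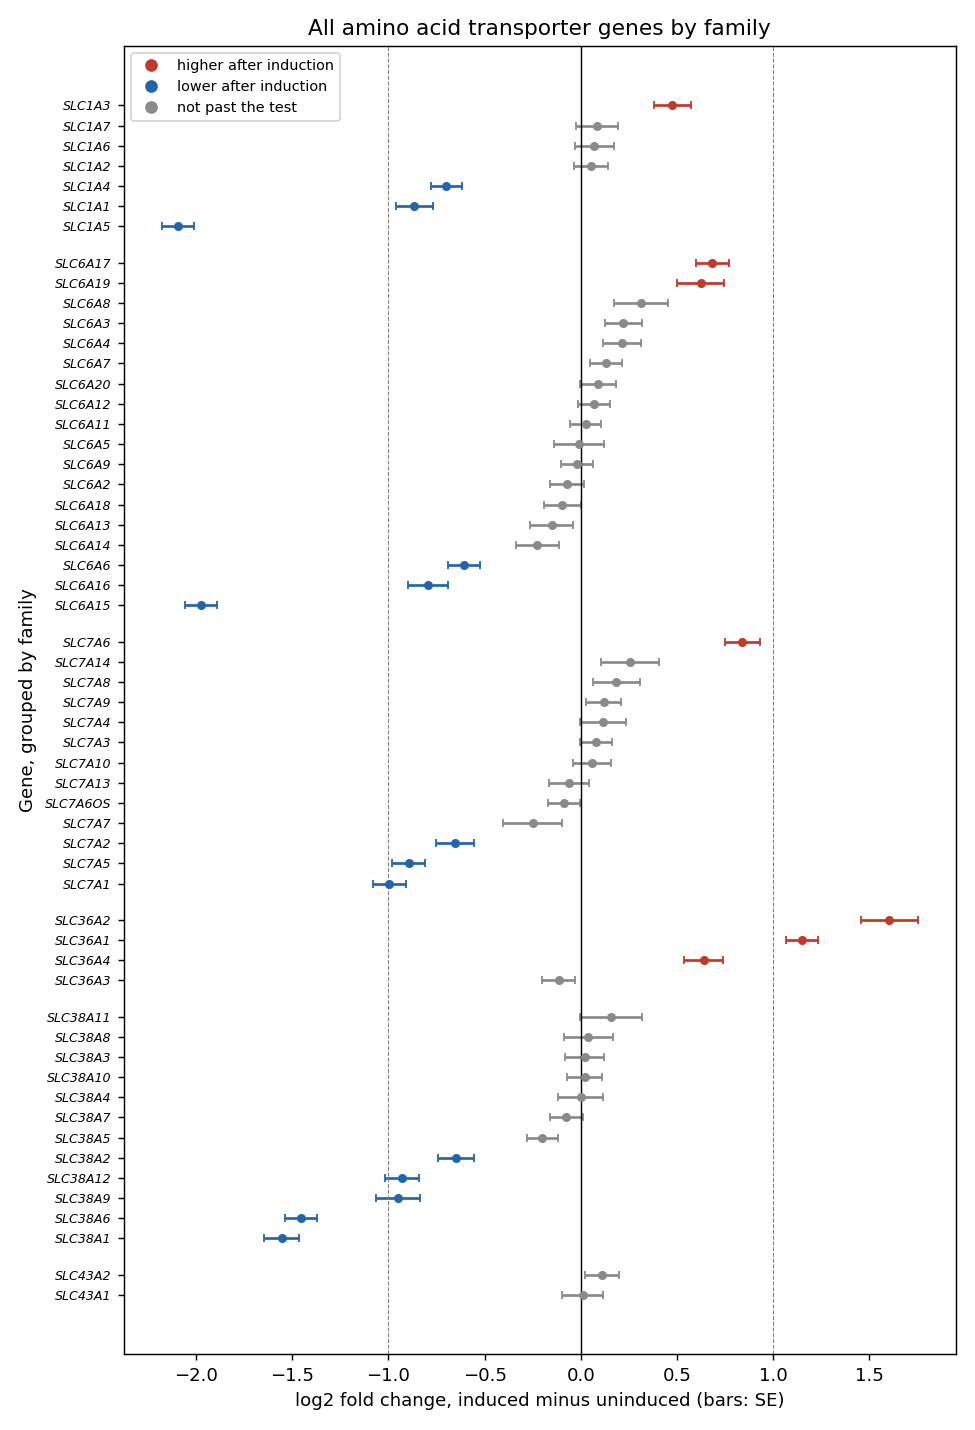
log2 fold change, induced minus uninduced (x axis), with its SE (bars), for all 56 genes grouped by family and ordered within each; red marks genes that rose, blue genes that fell and grey genes that did not pass the test, and dashed lines mark 2-fold. SLC36 holds 3 rises and 0 falls, SLC38 5 falls and 0 rises, and the SLC43 genes lie near 0. Of all genes, 20.6% rose and 24.6% fell. The changed share of SLC38 was 41.7% against 45.1% of all genes, and the 4 SLC36 genes are too few to set against such shares.

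Genes that work with these carriers were counted in 4 lists. Of all genes, 60.3% of those at or above the marker quartile changed, but only 16.9% of dim ones. The lists were not matched for level, so their shares cannot be read as an excess over the 45.1% of all genes. Of 14 partner chains and other amino acid or peptide carriers, 7 fell and 1 rose, or 57.1% changed against 45.1% of all genes, with a median log2 fold change of -0.34 against 0.00 for all genes. SLC16A10, a carrier of aromatic amino acids, went from 8.49 and 8.20 to 6.90 and 6.77, a log2 change of -1.51 (SE 0.12). CTNS, the lysosomal cystine exporter, read 9.60 on both uninduced arrays and 8.07 and 8.24 induced, a log2 change of -1.45 (SE 0.092). SLC7A11, the cystine importer that shares SLC3A2, went from 9.21 and 9.16 to 7.62 and 7.92. The peptide and histidine carriers SLC15A2 and SLC15A4 had log2 fold changes of -1.17 and -0.99, both called.

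Of 28 genes of lysosomal amino acid sensing, 11 rose and 6 fell, with a median of 0.14. The changed share of 60.7% compares with 45.1% of all genes and 60.3% of those at or above the marker quartile. SESN1, a stress-induced inhibitor of mTORC1 and a known p53 target, read 7.56 and 7.68 uninduced and 10.87 and 10.94 induced. LAMTOR2, a subunit of the Ragulator that anchors the Rag GTPases to lysosomes, rose from 8.24 and 8.22 to 9.99 and 10.13, 3.56-fold. Of 21 genes of the ATF4 response, which cells switch on when amino acids run short, 10 rose and 9 fell, with a median of 0.24. The changed share of 90.5% compares with 45.1% of all genes and 60.3% of those at or above the marker quartile. ATF4 itself, by its brightest probe set, read 10.76 and 10.68 uninduced and 10.73 and 10.74 induced (log2 fold change 0.02, limma adjusted p = 0.912). The average of the probe sets of ATF4 changed by -0.16 (limma adjusted p = 0.164), so they differ, and neither value passed the test. CHAC1, an enzyme that degrades glutathione, and EIF2AK4, the GCN2 kinase that senses uncharged tRNA, rose 4.82-fold and 3.57-fold. ASNS, asparagine synthetase, went from 9.79 and 9.87 to 8.83 and 8.97, a log2 change of -0.93 (SE 0.091). The list thus held rises and falls in nearly equal number.

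Of 20 enzymes that make or use the transported amino acids, 6 rose and 7 fell, with a median of 0.04. The changed share of 65.0% compares with 45.1% of all genes and 60.3% of those at or above the marker quartile. The largest rises were those of ARG2, the mitochondrial arginase, from 7.86 and 8.06 to 10.99 and 10.88, and PRODH, proline dehydrogenase and a known p53 target, from 6.79 and 6.74 to 9.56 and 9.72. Both enzymes break down an amino acid, and both rose over 7-fold, at 7.86-fold and 7.34-fold. The largest falls in the list were those of SHMT1 and BCAT1, with log2 fold changes of -1.65 and -1.405. Of the arginine or proline carriers named above, SLC7A1, SLC7A2, SLC38A9 and SLC6A15 fell and SLC36A2 and SLC7A6 rose. SLC6A7, SLC6A20 and SLC7A9 did not pass. SLC36A1 and SLC36A4, of the same proline-carrying family as SLC36A2, also rose and belong with these rises. This list is not complete, and directions were not compared by substrate. Lists and members share the same 4 arrays.

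**Figure D4:**
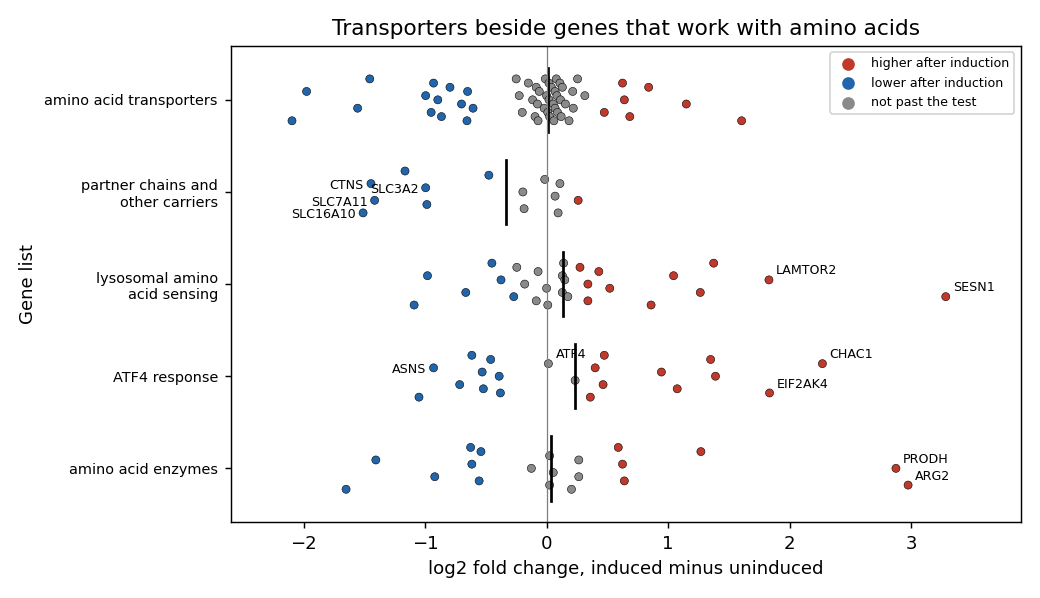
log2 fold change, induced minus uninduced (x axis), of each gene in the 56 amino acid transporters and in 4 lists of genes that work with amino acids (rows, points spread vertically for legibility); red points rose, blue points fell, grey points did not pass the test, and black bars are list medians. The partner chains and other carriers have the lowest median, at -0.34, and the largest rises are those of SESN1, ARG2 and PRODH.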

How the data were processed

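The authors' values came from RMA in Affymetrix Expression Console, per the submitters' processing notes; their versions, settings and genome build were not given in the sources used here. Deposited log2 levels ran from 2.26 to 14.3 on 4 arrays. RMA equalises the arrays' distributions, so a shift of all transcripts would be hidden, and it compresses changes of dim genes. Of 33297 rows, 19460 had 1 gene symbol, 1754 several and 12083 none, which left 18417 genes, each by its brightest probe set.

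limma 3.58.1 (R 4.3.3; lmFit, eBayes) compared the groups named in the sample titles without covariates, two-sided, with 7.20 total degrees of freedom, and was tested on simulated data. Calls needed an adjusted p under 0.05. Always named were 2-fold members, each family's brightest and most changed called member, 8 set members, MDM2, CDKN1A, SLC3A2, SLC7A11, ATF4, ASNS and the 2 most changed called genes of each list; every other member was named for completeness. Members and lists were chosen with earlier results of these data known. Genes of the lists without a single-gene probe set were not analysed here. Alternatives were re-normalization, centring, a filter on dim probe sets, averaged probe sets, all rows, an intensity trend, limma's treat, a replicate block and leaving out each array.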

Additional observations from a re-analysis of the deposited data

Results flagged for a closer look

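Probe sets that the annotation assigns to several genes were left out of the comparisons above, and 3 of the 4 that list a gene of these families differed between the groups in limma's test over all rows. Probe sets 7995292 and 8001082 are each assigned to 3 genes, SLC6A8 and its near-identical copies SLC6A10P and SLC6A10PB. The former read 8.43 and 8.40 uninduced and 10.85 and 11.15 induced, a log2 fold change of 2.585 (adjusted p = 0.00026), and the latter 8.33 and 8.31 against 10.74 and 11.05, one of 2.575 (adjusted p = 0.00027). Both exceed every rise among the 56 genes, while the probe set given to SLC6A8 alone had a log2 fold change of 0.32. Which of the 3 transcripts gave the signal was not tested. Probe set 8000167, assigned to 8 genes, 1 of them a pseudogene copy of SLC7A5, went from 11.43 and 11.54 to 10.86 and 11.02 (-0.545, adjusted p = 0.0124). With 2 arrays a group, no search for outlying arrays was possible.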

How the results depend on the processing

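All 12 alternatives were planned. Of the 21 called transporter genes, 17 were called under every alternative that tested them; the exceptions were SLC1A3, SLC36A4, SLC6A19 and SLC7A2, and no called gene changed direction. The number of rises ranged from 4 to 8 and that of falls from 13 to 15 when an array was left out; 2-fold rises numbered 2 and 2-fold falls 4 to 6. After centring on array medians 10 rose and 14 fell. With only the brighter probe sets kept (mean at or above percentile 40 over all genes, a higher limit than the marker quartile), 25 transporter genes were tested, 5 rose and 12 fell, and 2-fold rises numbered 1, since SLC36A2 was not among them. Technical replicate numbers are shared by the groups, and the labels do not say whether same-numbered arrays share more than a number. The deviations of same-numbered arrays from their group means correlated at 0.225 over all genes, and the cause was not tested. With the replicate block 8 genes rose and 14 fell, against 7 and 14 without it, and 7820 against 8311 of all genes were called. Centring moved the median of all genes by 0.075. Of the single-gene values followed, 510 kept their side of the threshold, 32 lost the call, among them markers CD3E, SFTPC, TEK and VIM, and 0 gained one; the cause was not tested. Signals under the marker quartile limit what can be said of 28 of the 56 genes.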
